A study of Mus musculus with 6 samples.

Results

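The integrins and laminins of the embryonic mouse heart were examined in whole hearts at E13.5. Every row of the deposited count table whose gene symbol names an integrin alpha or beta chain or a laminin alpha, beta or gamma chain was taken, except Itga2b and Itgb3, the chains of the platelet fibrinogen receptor. This gave 36 of the 46983 genes listed, 25 of them integrin rows and 11 laminin rows. The symbol Itgam stands on 2 rows, and the second of these (ENSMUSG00000108596) had 0 counts in every heart. Of the 36 rows, 34 passed the filter on low counts and were tested. The rows left untested were Itgad, which had between 2 and 16 counts per heart, and the second Itgam row.

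Mutant embryos carried Cre recombinase under the cardiac troponin T promoter (Tnnt2 Cre) and 2 floxed Wt1 alleles. The control embryos are called wild type in the labels and are described in the study's methods as Tnnt2 Cre-negative with both Wt1 alleles floxed, so the floxed alleles were common to both groups. The strain of all hearts was given as C57BL/6 x DBA/2. The driver recombines in nearly all myocardium and, by the study's account, in a part of the epicardium as well, so the deletion was not limited to cardiomyocytes. Each group held 3 hearts, 1 heart per library: wild type replicates 2, 3 and 5, and mutant replicates 1, 5 and 10. Values below follow this order. Litters were not named in the labels, and the p-values measure the spread between these 6 hearts.

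Laminins are cross-shaped trimers of an alpha, a beta and a gamma chain, and they form the first sheet of a basement membrane, onto which type IV collagen, nidogen and perlecan assemble. Integrins are heterodimers of an alpha and a beta chain that span the cell membrane and tie the matrix outside to the actin cytoskeleton inside. The alpha chain largely sets the ligand: laminin, collagen, matrix proteins with the RGD tripeptide, or counter-receptors on other cells. In the developing heart, basement membranes surround the cardiomyocytes and underlie the epicardium and endocardium, while leukocyte integrins are carried by the macrophages and other blood cells that enter the organ.

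Promoter sequences of these genes were searched because the deleted gene encodes a zinc finger transcription factor. The RefSeq promoter table (GRCm38.p6, from 250 bases before to 50 after each gene's start) held 25 promoters of 22 of the genes, among 32851 promoters in all. Only the 250 bases before the start were searched. The letters GCGTGGGAG, read on both strands and known as a WT1-type site, were in 0 of the 25 promoters and in 0.405% of all promoters. The letters GCGGGGGCG, an EGR-type site that WT1 can also bind, were in 1 of the 25, that of Lamb1, and in 2.57% of all. GAGGAA, the core letters of sites of PU.1, the myeloid ETS factor, were in 12 of the 25 and in 23.3% of all. The 12 were those of Itga11, Itga3, Itga5, Itgam, Itgav, Itgb1, Itgb6, Lama2, Lama5, Lamb1, Lamb2 and Lamb3. Only Itgam among them is a leukocyte integrin. These matches describe letters in a window and show no binding. The 250 bases before the start are shown for Lamb1, the one gene with an EGR-type match, and for Itgam, a myeloid integrin whose groups did not overlap. Both genes are on the plus strand, and capitals mark CGCCCCCGC, the reverse complement of the EGR-type letters, in Lamb1 and GAGGAA or its reverse complement TTCCTC in Itgam.
Lamb1, chr12:31265043-31265292: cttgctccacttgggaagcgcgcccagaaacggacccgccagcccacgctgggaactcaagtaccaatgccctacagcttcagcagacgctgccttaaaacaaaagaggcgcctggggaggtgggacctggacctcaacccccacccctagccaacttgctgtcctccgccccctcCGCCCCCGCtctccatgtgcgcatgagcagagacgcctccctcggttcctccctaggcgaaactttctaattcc
Itgam, chr7:128062390-128062639: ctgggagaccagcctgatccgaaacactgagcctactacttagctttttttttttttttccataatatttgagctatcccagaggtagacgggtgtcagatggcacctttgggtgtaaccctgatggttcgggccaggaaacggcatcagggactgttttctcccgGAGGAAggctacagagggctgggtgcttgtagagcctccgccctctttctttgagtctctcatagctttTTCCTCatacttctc
Promoters of Itga6, Itga7, Itgad, Itgae, Itgal, Itgb2, Itgb4, Lama1, Lama3, Lama4, Lamc1 and Lamc3 were not analysed here.

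The deepest library held 56373393 counts (wild type replicate 3) and the shallowest 44244665 (wild type replicate 5). Wt1, the targeted gene, had 2251, 1891 and 879 counts in wild type hearts against 921, 1746 and 1796 in the mutants, so the groups overlapped and a whole-gene count did not separate them. All 11 cardiomyocyte markers were detected, with a summed level between 20010 and 24090 CPM (counts scaled to a common library size after TMM normalization). One library stood apart. In wild type replicate 5, Spearman's rho between a gene's deviation from its mean over the hearts and the length of its longest transcript was −0.612 across 11784 genes, against −0.0939 to 0.495 in the other 5 hearts. Summed erythroid markers reached 38870 CPM in that heart and 42220 CPM in mutant replicate 10, and lay between 12340 and 16420 CPM in the others. Laminin and integrin transcripts are long, and the plot of fold changes by role gives the value of each gene plotted with and without wild type replicate 5.

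**Figure D1:**
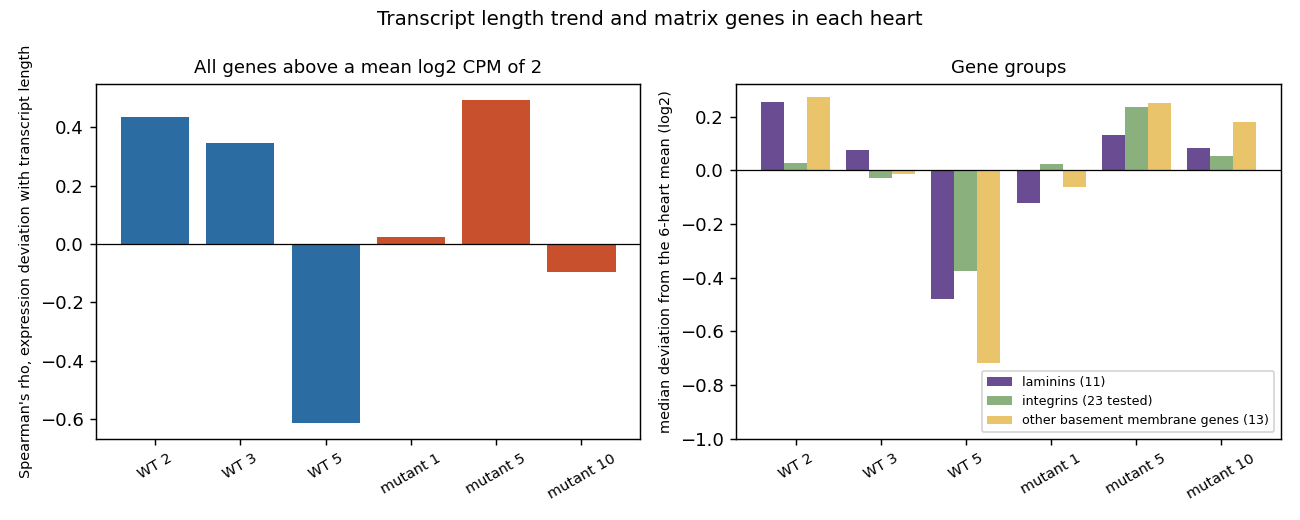
Left, bars give Spearman's rho between transcript length and expression deviation across genes in each heart (blue, wild type; red, mutant). Right, bars give the median deviation of 11 laminin, 23 integrin and 13 other basement membrane genes from the mean of the 6 hearts (log2 scale); wild type replicate 5 is the lowest for all 3 groups, with a laminin median of −0.48.

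Levels between genes were compared as CPM per kilobase of the longest annotated transcript. Lamc1, Lamb1, Lama4 and Lamb2 stood above the other laminin chains in every heart. Lamc1, the gamma chain of most laminins, stood highest at 60.4 ± 16.4 CPM per kb (SD over 6 hearts), followed by the beta chain Lamb1 at 57.6 ± 12, the alpha chain of vascular and muscle basement membranes Lama4 at 42.0 ± 9.27, and the beta chain Lamb2 at 20.2 ± 2.3. Lamc1 exceeded Lamb1 in 5 of 6 hearts and their ranges overlapped. Lama5, an alpha chain of epithelial and vascular basement membranes, had 7.5 ± 2.01 CPM per kb, and Lama2, the alpha chain of mature muscle, had 4.0 ± 0.958. Chains of epithelial laminins were lower: Lamb3 had 0.961 ± 0.141 and Lama3 0.322 ± 0.0729 CPM per kb. Lama1, the alpha chain of the earliest embryonic basement membranes, and Lamc3 closed the order at 0.305 ± 0.171 and 0.268 ± 0.257 CPM per kb, and the ranges of Lama3, Lama1 and Lamc3 overlapped.

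Among integrin alpha chains, Itga6, which pairs with beta1 or beta4 to bind laminin, had 57.2 ± 10.2 CPM per kb, and Itga5, the fibronectin receptor chain, had 52.5 ± 6.29. Itga6 was the higher of these in 5 of 6 hearts, with overlapping ranges. Itga9, Itgav and Itga3 followed at 14.0, 12.7 and 8.39 CPM per kb on average. The leukocyte chain Itgal stood ninth, at 1.06 ± 0.468 CPM per kb, between Itga4, a chain that binds VCAM1 and fibronectin, at 1.65 ± 0.544 and Itga7, the muscle laminin receptor chain, at 0.720 ± 0.240. Among beta chains Itgb1, the common partner of most matrix-binding alpha chains, had 272 ± 28.2 CPM per kb, Itgb5 had 51.9 ± 2.72 and Itgb8 had 2.75 ± 0.333, with no overlap of ranges between these neighbours. Itgb2, Itgb4, Itgb7 and Itgb6 were all below the lowest heart of Itgb8, with means of 0.799, 0.451, 0.123 and 0.0414 CPM per kb. The lengths behind the deposited FPKM values change parts of this order: Lamb2 made up 42.7% of the beta chains in wild type hearts by FPKM and 26.4% per longest transcript, and Itga5 made up 18.5% and 33.9% of the alpha chains.

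**Figure D2:**
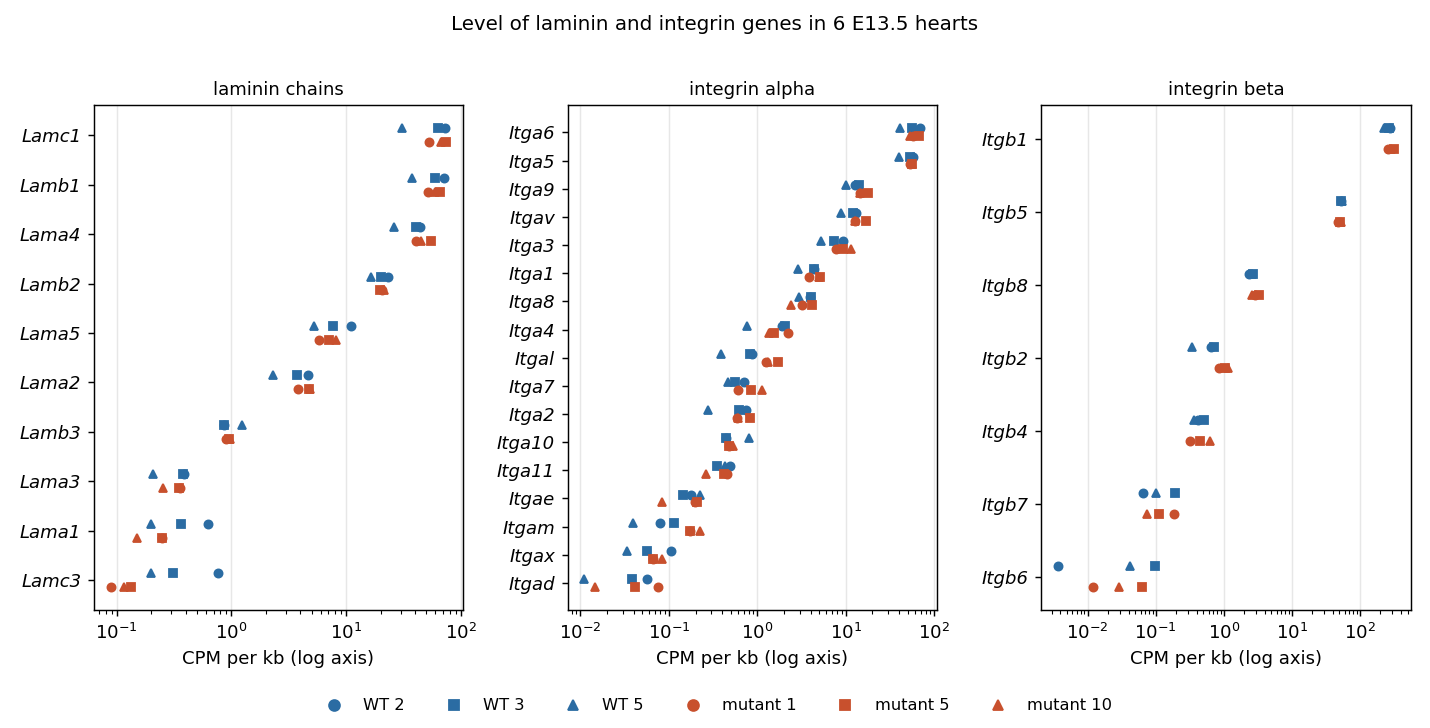
Points are the level of laminin and integrin genes in each heart, in CPM per kb of the longest transcript on a log axis (blue, wild type; red, mutant; shapes tell the replicates apart). Itgb1 is above every other gene plotted, at 229 to 314 CPM per kb, and the blue triangle (wild type replicate 5) is the lowest point for Lamc1, Lamb1, Lama4 and Itga6.

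The comparison of mutant with wild type hearts asked whether loss of Wt1 in the troponin T lineage changed the transcripts of these genes. In edgeR's quasi-likelihood test, 0 of the 34 genes passed a Benjamini-Hochberg adjusted p under 0.05, as did 0 of all 17473 genes tested (0.0%). At an unadjusted p under 0.05 there were 5 of the 34, against 1002 genes (5.73%) in the whole table. Itgal, Itgam and Itgb2 were among the 4 that were higher in the mutant (549 genes, 3.14% of all, were higher at this threshold). Lamc3 was lower (453 genes, 2.59% of all). DESeq2, the tool the study used, gave an adjusted p under 0.05 to 132 of 20013 genes (0.66%), and Lamc3 was the sole integrin or laminin gene among them. The values of the mutant hearts lay wholly on one side of the wild type values for 5 of the 34, Lamc3 below and Itgal, Itgam, Itgb2 and Itga9 above, where 1957 genes (11.2%) did so in the whole table. Of the 34 log2 fold changes, 23 were above and 11 below 0, with a median of 0.12 beside −0.00 over all genes tested. Without wild type replicate 5 the median was −0.00. In whole hearts, more or fewer cells of a type and more or less RNA per cell cannot be told apart.

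**Figure D3:**
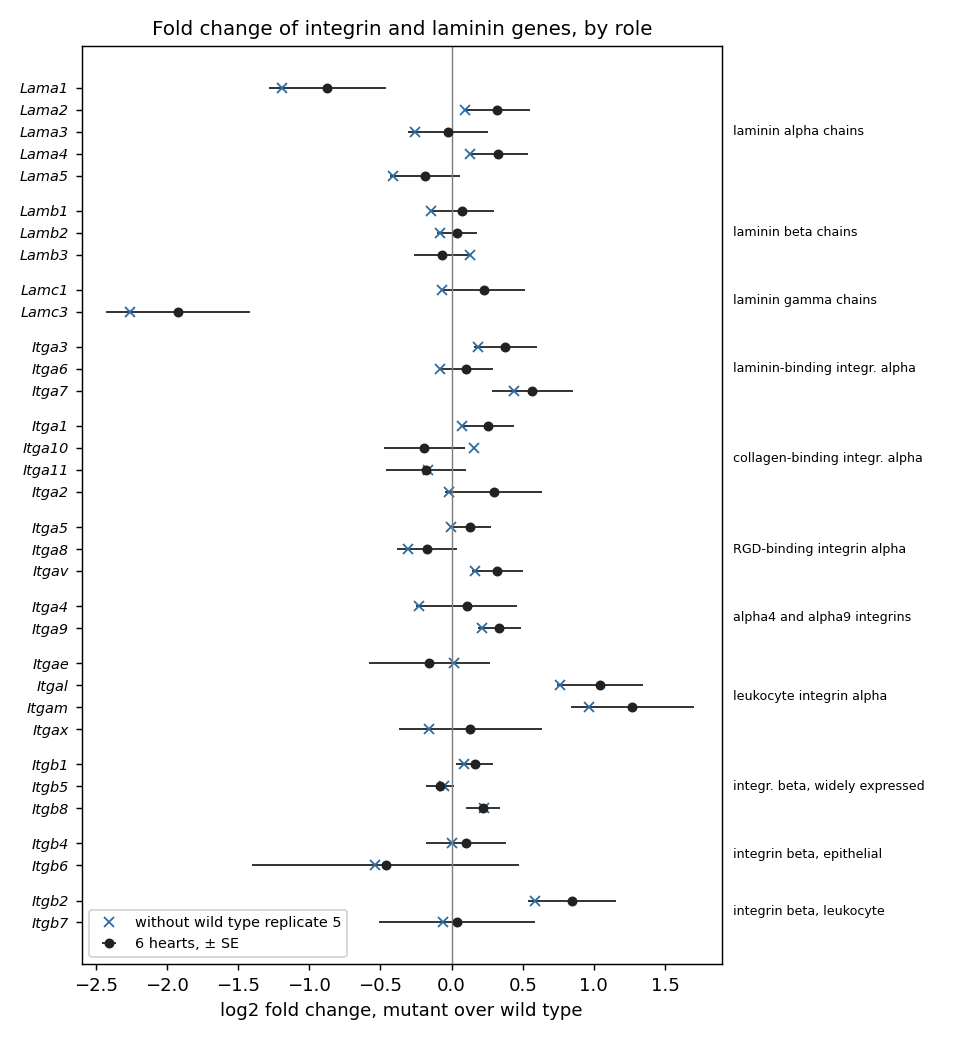
Black points are the log2 fold change of mutant over wild type hearts for genes tested, with bars of 1 standard error, grouped by role; blue crosses are the values without wild type replicate 5. Lamc3 lies at −1.92 and Itgal, Itgam and Itgb2 between 0.85 and 1.27, and for most other genes the bar crosses or nears 0.

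Lamc3, a gamma chain known from the basement membranes of the cerebral cortex and retina, had the largest fold change of the 11 laminin genes. Its position is chromosome 2, 31887291 to 31946539 (GRCm38, ENSMUSG00000026840). Reads of Lamc3 came to 254, 104 and 51 counts in wild type hearts against 27, 41 and 34 in the mutants, or 4.51, 1.81 and 1.16 CPM against 0.519, 0.782 and 0.676 CPM. The 3 mutant hearts were all below the lowest wild type heart, and wild type replicate 2 was far above the other 2 controls. Means were 2.49 ± 1.78 CPM and 0.659 ± 0.132 CPM (SD, n = 3), a log2 fold change of −1.92 (standard error 0.51, unadjusted p = 0.00512, adjusted p = 0.545 by edgeR's quasi-likelihood test). DESeq2 gave the same −1.92 with an adjusted p of 0.018. The DESeq2 call rested on particular hearts: the adjusted p was 0.508 without wild type replicate 2, 0.146, 0.102 and 0.216 without mutant replicates 1, 5 and 10, and 0.0321 and 1.66e-04 without wild type replicates 3 and 5. The log2 fold change without wild type replicate 2 was −1.17 in edgeR. Of the exon bases of Lamc3, 6.27% are shared with Gm13441 on the opposite strand, which had no count in any heart. Lamc3 made up 0.481%, 0.225% and 0.286% of the summed gamma chain FPKM in wild type hearts and 0.0756%, 0.0808% and 0.0773% in mutant hearts.

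**Figure D4:**
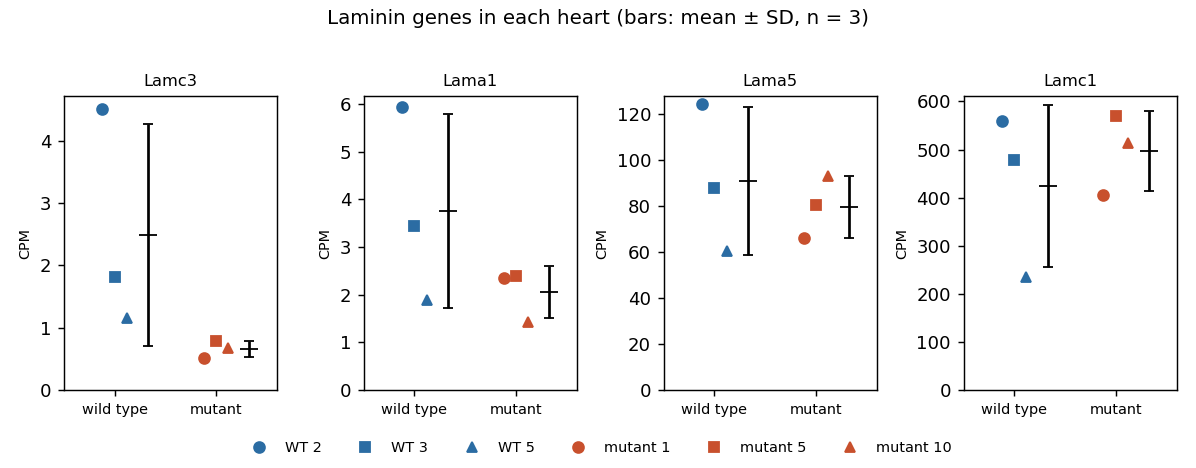
Points are the CPM of 4 laminin genes in each heart, with the mean and SD of each group (n = 3) beside them; each axis starts at 0. Lamc3 separates the groups with wild type replicate 2 at 4.51 CPM, and the groups overlap for Lama1, Lama5 and Lamc1.

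The main gamma chain, Lamc1, had 559, 479 and 235 CPM in wild type hearts against 406, 570 and 513 CPM in the mutants. Wild type replicate 5 lay below every other heart, and the log2 fold change of 0.23 (standard error 0.29) became −0.06 without it. The beta chain Lamb1 had 413, 345 and 217 CPM against 299, 384 and 343 CPM, which gives a log2 fold change of 0.08 (standard error 0.22) that became −0.15 without that heart. Lamb2, the beta chain of the neuromuscular junction and the glomerulus, had 132, 113 and 92.3 CPM against 115, 111 and 120 CPM (0.04, standard error 0.14). The groups overlapped for all 3 beta chains.

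Of the alpha chains, Lama4 had 269, 248 and 157 CPM in wild type hearts against 248, 330 and 270 CPM in the mutants (log2 fold change 0.33, standard error 0.21), and Lama2 had a value of 0.32 (standard error 0.23). Both lessened without wild type replicate 5, to 0.13 and 0.09. Lama5 had 125, 87.7 and 60.4 CPM against 66.1, 80.4 and 93.1 CPM, with overlapping groups and a log2 fold change of −0.19 (standard error 0.25). Without wild type replicate 5 the value for Lama5 was −0.41, and without wild type replicate 2 it was 0.11, so its direction depended on single hearts. As a share of the summed alpha chain FPKM, Lama5 made up 24.8%, 20.4% and 21.8% in wild type and 16.2%, 15.1% and 19.8% in mutant hearts, and the groups did not overlap (exact permutation test over hearts, two-sided, p = 0.1, the smallest that 3 against 3 hearts allow). Over the 17 sums and shares computed, the lowest Benjamini-Hochberg adjusted p was 0.283, so none could pass. The share of Lama4 was 66.4%, 71.5% and 70.4% against 75.2%, 76.8% and 71.0%, with overlapping groups (exact p = 0.2).

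Lama1 (chromosome 17, 67697259 to 67822647) had 334, 198 and 83 counts in wild type hearts against 122, 125 and 72 in the mutants, or 5.93, 3.44 and 1.89 CPM against 2.35, 2.38 and 1.43 CPM. Wild type replicate 5 lay among the mutant hearts. Its log2 fold change was −0.87 (standard error 0.41, unadjusted p = 0.0664, adjusted p = 0.911 by edgeR's quasi-likelihood test), and it ranged from −1.19 without wild type replicate 5 to −0.38 without wild type replicate 2. With DESeq2 and without wild type replicate 5, Lama1 joined Lamc3 and Itgal with an adjusted p under 0.05, in a fit that called 447 genes. As a share of alpha chain FPKM it was 0.406%, 0.275% and 0.234% in wild type against 0.197%, 0.153% and 0.104% in mutant hearts, which did not overlap (exact permutation test, p = 0.1). Lama3 had 2.20 to 4.05 CPM over the 6 hearts. Lamb3 and Lama3 had log2 fold changes of −0.06 and −0.03 with overlapping groups.

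None of the 3 laminin-binding alpha chains separated the groups. Itga6 had 298, 241 and 175 CPM in wild type hearts against 248, 287 and 231 CPM in the mutants, with overlapping groups and a log2 fold change of 0.10 (standard error 0.19). Itga3, which binds laminins with the Lama5 or Lama3 chain, had 45.0, 36.1 and 25.2 CPM against 37.9, 44.8 and 55.5 CPM (0.38, standard error 0.22). Itga7 had between 1.89 and 4.55 CPM (0.57, standard error 0.28, unadjusted p = 0.0807 in edgeR's fit over all genes). All 3 values were above 0 and none had an unadjusted p under 0.05, and without wild type replicate 5 that of Itga6 became −0.08 and that of Itga3 became 0.18. The value for Itga7 was 0.32 without mutant replicate 10. The 10 laminin receptors outside the integrin family, such as dystroglycan (Dag1) and syndecans, gave 0 genes with an unadjusted p under 0.05 or with a DESeq2 call, and a median log2 fold change of 0.13.

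Collagen-binding chains were at low levels apart from Itga1, which had 48.6, 47.9 and 31.4 CPM in wild type hearts against 42.6, 55.6 and 54.3 CPM in the mutants (log2 fold change 0.25, standard error 0.19). Without wild type replicate 5 the value for Itga1 was 0.08. Itga2, a chain also carried by platelets, had 5.27, 4.45 and 1.95 CPM against 4.23, 5.82 and 4.33 CPM (0.30, standard error 0.34), and −0.02 once wild type replicate 5 was left out. The groups overlapped for all 4 collagen-binding chains. Itga10 and Itga11 had 2.22 to 4.09 CPM and 1.29 to 2.45 CPM over the hearts, with log2 fold changes of −0.19 and −0.18. Of the exon bases of Itga10, 33.5% are shared with Gm42957 on the same strand, which had at most 4 counts per heart, so its level is uncertain.

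Among chains that bind the RGD tripeptide, Itga5 had 253, 233 and 177 CPM in wild type hearts against 235, 248 and 245 CPM in the mutants (log2 fold change 0.13, standard error 0.14, and −0.00 without wild type replicate 5). Itgav, a chain that with beta6 or beta8 can activate latent TGF-beta, had 91.5, 86.1 and 61.6 CPM against 89.3, 120 and 90.7 CPM (0.32, standard error 0.18). The value for Itgav was 0.17 once wild type replicate 5 was left out, and leaving out mutant replicate 5 gave 0.16. Itga8, a receptor for nephronectin, had 14.0 to 24.1 CPM (−0.17, standard error 0.21). The groups overlapped for all 3. As a share of alpha chain FPKM, Itgav made up 11.8%, 12.3% and 12.2% in wild type and 12.5%, 14.2% and 12.7% in mutant hearts, without overlap (exact permutation test, p = 0.1).

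Itga9, a receptor chain for tenascin C and VCAM1, is the nearest relative of Itga4. Itga9 (chromosome 9, 118606690 to 118901003) had 90.0, 99.6 and 71.5 CPM in wild type hearts against 101, 126 and 102 CPM in the mutants. The lowest mutant heart exceeded the highest wild type heart by less than the SD of either group. Means were 87.0 ± 14.3 and 110 ± 14.2 CPM (SD, n = 3), a log2 fold change of 0.34 (standard error 0.15, unadjusted p = 0.0546, adjusted p = 0.890 by edgeR's quasi-likelihood test) that ran from 0.21 to 0.45 when single hearts were left out. Itga4 had 18.7, 20.3 and 7.38 CPM against 21.7, 15 and 13.4 CPM (0.11, standard error 0.35). Without wild type replicate 5 the value for Itga4 was −0.23. Its exons share 8.04% of their bases with Cerkl on the opposite strand, which had at most 8 counts per heart.

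Differences were small for the widely expressed beta chains. Itgb1 (chromosome 8, 128685654 to 128733200) had 1054, 1012 and 873 CPM in wild type hearts against 1001, 1197 and 1092 CPM in the mutants (log2 fold change 0.16, standard error 0.13), and leaving out either wild type replicate 5 or mutant replicate 5 gave 0.09. Itgb5, the vitronectin receptor chain that pairs with alphav, had 172, 171 and 182 CPM against 155, 166 and 175 CPM (−0.08, standard error 0.10). The groups overlapped for both, and for Itgb8 (0.22, standard error 0.12, and 0.12 without mutant replicate 5). Itgb1 made up 81.0%, 80.3% and 77.0% of beta chain FPKM in wild type and 81.5%, 83.0% and 81.1% in mutant hearts, which did not overlap (exact permutation test, p = 0.1). The epithelial chains were low: Itgb4, the hemidesmosome chain, had 2.61, 3.18 and 2.3 CPM against 2.00, 2.82 and 3.88 CPM, and Itgb6 had 0.0178, 0.470 and 0.204 CPM against 0.0577, 0.305 and 0.139 CPM. Itgb6 rested on 1 to 27 counts per heart, and its log2 fold change of −0.46 had a standard error of 0.94.

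Of the 6 leukocyte integrin genes tested, alpha and beta chains together, 3 had an unadjusted p under 0.05 in edgeR's test (5.73% of all genes). These were Itgal, Itgam and Itgb2, each higher in the mutant hearts (3.14% of all genes). Itgal, which with Itgb2 forms the leukocyte receptor for ICAM proteins, is at chromosome 7, 127296260 to 127335138. Itgal reads came to 253, 247 and 89 counts in wild type hearts against 337, 473 and 347 in the mutants, or 4.49, 4.30 and 2.02 CPM against 6.48, 9.02 and 6.90 CPM. Every mutant heart was above every wild type heart. Means were 3.6 ± 1.37 and 7.47 ± 1.36 CPM (SD, n = 3), a log2 fold change of 1.05 (standard error 0.30, unadjusted p = 0.00819, adjusted p = 0.635 by edgeR's quasi-likelihood test). DESeq2 gave an adjusted p of 0.075 with all hearts. It was 0.0531, 0.081 and 0.0211 without wild type replicates 2, 3 and 5, and 0.132, 0.844 and 0.422 without mutant replicates 1, 5 and 10.

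Itgb2 (chromosome 10, 77530252 to 77565708), the beta chain shared by Itgal, Itgam, Itgax and Itgad, had 1.9, 2.17 and 1.0 CPM in wild type hearts against 2.56, 3.13 and 3.48 CPM in the mutants. Its groups did not overlap, and the log2 fold change was 0.85 (standard error 0.31, unadjusted p = 0.0262, adjusted p = 0.789 by edgeR's quasi-likelihood test). Itgam (chromosome 7, 128062640 to 128118491), the chain of the complement receptor of myeloid cells, had 21, 31 and 8 counts against 42, 43 and 53, or 0.373, 0.539 and 0.182 CPM against 0.808, 0.820 and 1.05 CPM. Again every mutant heart lay above the wild type hearts, at a log2 fold change of 1.27 (standard error 0.43, unadjusted p = 0.0181, adjusted p = 0.737 by the same edgeR test). Of the Itgam exon bases, 68.7% are shared with the second row of that symbol on the same strand, so reads there may not have been assigned and the level is uncertain. The other leukocyte chains did not separate the groups: Itgb7 had 0.178, 0.522 and 0.273 CPM against 0.5, 0.305 and 0.199 CPM, Itgae had 0.318 to 0.863 CPM and Itgax 0.136 to 0.426 CPM. With each heart left out, the fold changes of Itgal, Itgb2 and Itgam kept their direction, between 0.77 and 1.23, 0.58 and 1.07, and 0.97 and 1.66. With the trend on gene length removed from each heart, their values were 1.01, 0.83 and 1.25, and that of Lamc3 was −1.94.

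**Figure D5:**
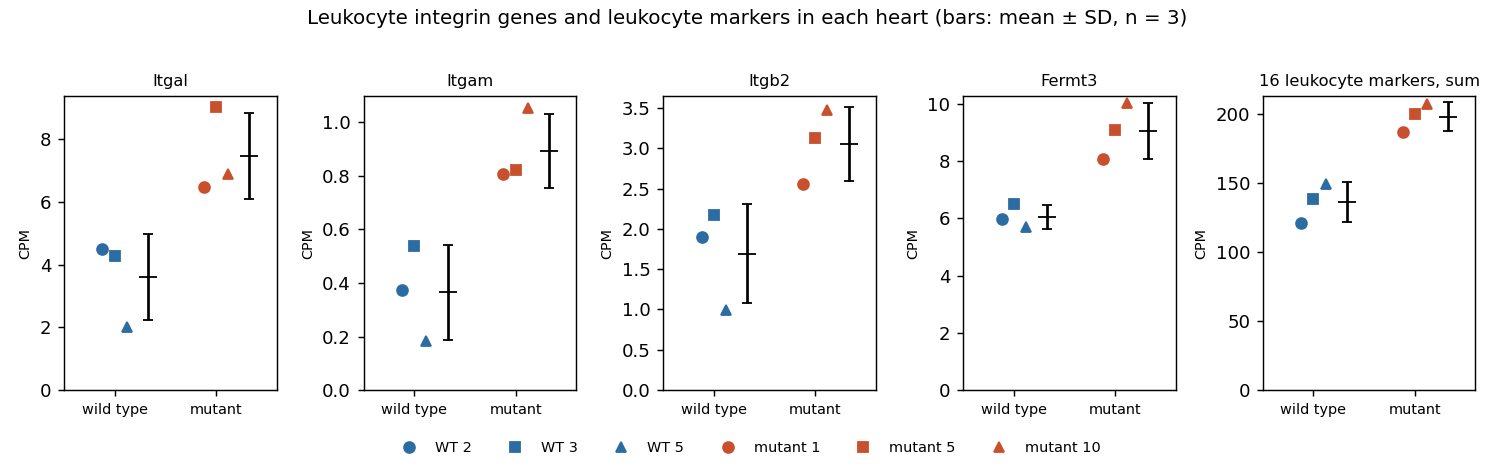
Points are the CPM of Itgal, Itgam, Itgb2, Fermt3 and the sum of 16 macrophage and leukocyte markers in each heart, with the mean and SD of each group (n = 3); each axis starts at 0. In all 5 panels the mutant hearts lie above the wild type hearts. Wild type replicate 5 is the lowest for the 3 integrins but the highest wild type heart for the summed markers.

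Markers of macrophages and other leukocytes were mostly higher in the mutant hearts as well. Among the wild type hearts they did not follow these chains. Wild type replicate 5 was the highest of these for the summed markers and the lowest for Itgal, Itgb2 and Itgam. Of the 16 markers listed, none was at 0 in every heart and 15 were tested. In edgeR's test 12 were higher in the mutant at an unadjusted p under 0.05 (3.14% of all genes). DESeq2 called 3 (0.66% of all genes), Timd4, C1qa and C1qb. The summed level of the 16 markers was 121, 139 and 150 CPM in wild type hearts against 187, 200 and 208 CPM in the mutants. Per 100 CPM of these markers, Itgal had 3.71, 3.1 and 1.35 CPM in wild type hearts against 3.46, 4.5 and 3.32 CPM in the mutants, so the groups overlapped on that scale. Itgb2 on that scale had 1.57, 1.57 and 0.669 CPM against 1.37, 1.56 and 1.68 CPM, with overlap. Itgam had 0.308, 0.389 and 0.122 CPM against 0.431, 0.409 and 0.507 CPM. The Itgam groups did not overlap, but the nearest values, 0.389 in wild type replicate 3 and 0.409 in mutant replicate 5, were close. They rested on 31 and 43 Itgam counts, and the scale was chosen after seeing the data. Fermt3, the kindlin that activates integrins in blood cells, had 5.97, 6.50 and 5.68 CPM against 8.06, 9.1 and 10 CPM (log2 fold change 0.58, standard error 0.15, unadjusted p = 0.00388, adjusted p = 0.484 by edgeR's quasi-likelihood test). It was the 1 gene of 22 tested among integrin activators and cytoplasmic adaptors with an unadjusted p under 0.05 (5.73% of all genes). That list had a median log2 fold change of 0.11.

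Platelet markers were also higher in the mutant hearts. Of 10 tested, 7 were higher at an unadjusted p under 0.05 in edgeR's test (3.14% of all genes). DESeq2 called 1 of the 10 (0.66% of all genes), Ppbp, a platelet chemokine. Itga2b and Itgb3 were among the 7, at log2 fold changes of 0.51 and 0.53. The summed platelet markers were at 50.1, 44.2 and 48.5 CPM in wild type hearts against 62.5, 89.1 and 78.1 CPM in the mutants, and their part in the levels of Itga2, Fermt3 or any integrin above was not tested.

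The ligands of these receptors were also read. Of 15 integrin ligands outside the basement membrane, edgeR's quasi-likelihood test put 4 higher at an unadjusted p under 0.05 and 0 lower. Over all genes tested, 3.14% were higher and 2.59% lower at this threshold. The list had 0 DESeq2 calls (0.66% of all genes), and the 4 had adjusted p-values between 0.728 and 0.852 in edgeR's test. The 4 were Spp1 (osteopontin, 0.92), Thbs1 (thrombospondin, 0.63), Icam1 (a ligand of Itgal, 0.40) and F11r (a junctional adhesion molecule that binds Itgal, 0.25), given as log2 fold changes. Fn1, the fibronectin gene, had 843 ± 462 CPM in wild type hearts against 1016 ± 202 CPM in the mutants (SD, n = 3; 0.27, standard error 0.40). Vcam1 had 86.4 ± 11.2 and 86.3 ± 7.20 CPM. Of the 13 other basement membrane genes, which include type IV collagens, nidogens, perlecan and agrin, 11 were above and 2 below 0, 0 had an unadjusted p under 0.05 or a DESeq2 call, and the median was 0.20. Without wild type replicate 5 that median was −0.06. The smallest p of the list was for Ntn4, a netrin that binds laminin (0.35, standard error 0.18, unadjusted p = 0.0962).

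Other cell types were read from their markers in the same edgeR test. Over all genes tested, 3.14% were higher and 2.59% lower at an unadjusted p under 0.05. Of 13 epicardial markers, 6 were higher at this threshold, among them Krt8, a simple-epithelium keratin, at a log2 fold change of 1.13. Muc16, a mesothelial mucin, was lower at −1.74. DESeq2 called Krt8 and Aldh1a1. The summed level of the 13 was 549, 455 and 282 CPM in wild type hearts against 371, 518 and 648 CPM in the mutants. The groups overlapped, and none of the 13 was at 0 in every heart. Fibroblast markers gave 3 of 9 genes at an unadjusted p under 0.05, Col1a1 and Col1a2 higher and Tcf21 lower, the last with a DESeq2 call. Endothelial markers gave 1 of 10 (Emcn, higher), and cardiomyocyte markers 1 of 11 (Myl7, an atrial myosin light chain, lower). Lung and foregut markers gave 2 of 7 tested (Krt7 and Cldn3, higher, the latter with a DESeq2 call). Of these 7, 3 were above and 4 below 0, with a median log2 fold change of −0.11. Smooth muscle, neural crest and erythroid markers gave 0 of 7, 0 of 8 and 0 of 9, with 0 DESeq2 calls. The parts of these cell types in the integrin and laminin levels were not tested.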

How the data were processed

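RNA of 6 whole hearts was sequenced (1 heart per library). The study's methods describe trimming with Trim Galore, alignment with STAR and counting of uniquely mapped reads with featureCounts; the submitters' processing notes also name HTSeq and DESeq2. The strand setting is not given in the sources used here. The authors deposited raw counts per gene for every heart, and FPKM values. Each deposited FPKM is the count over 1 fixed length per gene, equal within 1 base to the mean GENCODE M21 transcript length for 76.1% of 26680 genes; its ratio to the exon union had a median of 0.433 over the members.

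The main test was edgeR 4.0.16 (R 4.3.3), quasi-likelihood, TMM, filterByExpr (minimum count 10, total 15), two-sided, Benjamini-Hochberg over 17473 genes; the standard error is the log2 fold change over the square root of F. Alternatives were DESeq2 1.42.0, limma 3.58.1 on counts and on log2 deposited FPKM (pseudocount 1 or 0.1), DESeq2 size factors, no filter, a gene length correction (loess, span 0.5), each heart left out, and, chosen after seeing the data, correction by the longest transcript, DESeq2 with each heart left out, leukocyte integrins per leukocyte marker, and the GAGGAA letters. Scripts were tested on simulated data.

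The members, the 11 role groups, 4 context lists and 10 marker lists were chosen with earlier results of these data known. Values in every heart are given for members with an unadjusted p under 0.05 or without overlap and for the 2 with the highest FPKM in each role group; of each other list, members with an unadjusted p under 0.05 or the one with the smallest p are named. Lama1 and other genes were named after their values were seen. Positions are from GENCODE M21 (GRCm38). Protein sequences were not analysed here, and the values of some genes are not reported here. The standard errors of the fold changes include the spread between hearts.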

Additional observations from a re-analysis of the deposited data

How the results depend on the processing

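Of 510 pairs of a gene and an alternative (34 genes, 15 alternatives), 472 kept direction and side of the threshold, 37 reversed over 18 genes, and 1, Lamc3 in DESeq2, passed it; 12 genes reversed without wild type replicate 5. Genes that pass an adjusted p under 0.05 numbered 0 in edgeR's test and 1 with DESeq2 among the members. Among all genes they numbered 132 with DESeq2, 34 without a filter, 6 and 5 with the length corrections by the FPKM length and by the longest transcript, 41 with the former and without wild type replicate 5, and 0 to 44 with each heart left out. With DESeq2, leaving out each heart gave 95, 107 and 447 genes (wild type replicates 2, 3, 5), 143, 71 and 71 (mutant replicates 1, 5, 10) and 0 to 3 members, with none left without wild type replicate 2 or any 1 mutant heart. Members with an unadjusted p under 0.05 numbered 8 after correction by the longest transcript, beside 1268 of all genes. They numbered 7 after correction by the FPKM length without wild type replicate 5, beside 2363 of all genes. With each heart left out, members numbered 3 to 7 (7 without wild type replicate 2, 3 without mutant replicate 5 or 10) and all genes 619 to 2179.

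With length correction and without wild type replicate 5, reversed log2 fold changes were 0.19 (Itga10), −0.19 (Itga4), −0.071 (Itga6), 0.047 (Itgae), −0.18 (Itgax), −0.077 (Itgb7), −0.13 (Lamb1), −0.12 (Lamb2), 0.12 (Lamb3) and −0.057 (Lamc1). Itgb6 was 0.089 with voom and Lamb2 −0.014 with correction by the longest transcript. Leaving out each heart, those that reversed ranged from −0.34 to 0.16 (Itga10), −0.33 to 0.027 (Itga11), −0.020 to 0.58 (Itga2), −0.23 to 0.35 (Itga4), −0.0027 to 0.24 (Itga5), −0.077 to 0.30 (Itga6), −0.40 to 0.0037 (Itga8), −0.39 to 0.16 (Itgae), −0.16 to 0.66 (Itgax), −0.16 to 0.31 (Itgb4), −1.23 to 0.66 (Itgb6), −0.36 to 0.58 (Itgb7), −0.26 to 0.12 (Lama3), −0.41 to 0.11 (Lama5), −0.15 to 0.29 (Lamb1), −0.084 to 0.17 (Lamb2), −0.15 to 0.13 (Lamb3) and −0.064 to 0.48 (Lamc1). The causes were not tested. No paired analysis was made because the labels name no litters or pairs. Among genes with few counts, standard errors were 0.94 (Itgb6), 0.55 (Itgb7) and 0.50 (Itgax) on the log2 scale.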
